A study of Rattus norvegicus with 6 samples.

Results

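The miR-30 family was followed across small RNA libraries from rat testis. Members were all rows of the deposited miRNA table named miR-30a to miR-30e, from either arm of the precursor, and no measured value entered the choice. This gave 11 members among 721 rows, 5 from the 5p arm and 6 from the 3p arm. The tissue came from adult male Sprague-Dawley rats, 3 diabetic and 3 normal. Diabetic rats had been fed a high-fat diet and then injected once with streptozotocin (STZ), a toxin of pancreatic beta cells that lowers insulin. Both groups were sampled at week 8, which the study counts from the STZ injection. Normal rats had been injected with citrate buffer, and whether they ate the same diet is not given in the sources used here, nor is an age in weeks for either group. Diabetic and normal libraries were separate samples, but no label says that each came from its own animal, so p-values measure the spread between these samples. Because whole testis was sequenced, fewer cells of a type and less RNA per cell cannot be told apart.

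A miRNA precursor folds into a hairpin, from which Drosha and Dicer release a short duplex. One strand of the duplex comes from the 5' side (5p) and the other from the 3' side (3p), and usually one of them is kept in an Argonaute protein while the other is degraded. Target choice rests largely on the seed, the stretch near the 5' end of the mature strand that pairs with messenger RNA. The miR-30 family is named for a shared 5p seed, is abundant in many differentiated tissues, and is known for repressing regulators such as the transcription factor Snai1 and the autophagy protein Beclin 1.

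Mature sequences were matched by name in the RefSeq miRNA table (build GRCr8) for 6 of the 11 members. They are shown because the matched 5p members differ only outside the seed, while the matched 3p members do not share one seed. Capitals mark bases 2 to 8, the seed.
miR-30a-5p: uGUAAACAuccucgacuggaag
miR-30c-5p: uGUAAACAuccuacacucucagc
miR-30e-5p: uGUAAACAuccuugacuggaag
miR-30a-3p: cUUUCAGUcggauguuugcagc
miR-30c-1-3p: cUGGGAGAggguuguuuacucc
miR-30c-2-3p: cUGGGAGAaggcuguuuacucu
Both arms of miR-30b and miR-30d, and miR-30e-3p, are given by name only. Counting positions from 1 at the 5' end, miR-30a-5p and miR-30e-5p differed at 1 of 22 positions (C13U), and miR-30a-5p and miR-30c-5p at 5 of the 22 positions compared. The 3p strands miR-30c-1-3p and miR-30c-2-3p differed at 3 of 22 positions (G9A, U12C and C22U). How the authors assigned reads that match more than one of these is not stated, so the level of each single member is less certain than the family sum.

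Hairpins are shown for the 3 precursors with both mature arms in that table, with the arms in capitals, because the arm ratios below compare these stretches.
Mir30a: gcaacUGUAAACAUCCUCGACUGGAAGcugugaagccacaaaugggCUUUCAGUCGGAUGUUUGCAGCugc
Mir30c1: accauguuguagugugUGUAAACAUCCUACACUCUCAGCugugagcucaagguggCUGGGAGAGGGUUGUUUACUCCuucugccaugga
Mir30c2: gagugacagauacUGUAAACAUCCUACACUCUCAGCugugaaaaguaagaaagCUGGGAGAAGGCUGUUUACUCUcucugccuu
Mir30c1 and Mir30c2 encode the same 5p strand and different 3p strands. In the RefSeq gene table (GRCr8) the genes lie in neighbouring couples: Mir30a beside Mir30c2, Mir30b beside Mir30d, and Mir30c1 beside Mir30e. Mir30c1 and Mir30e both lie within the span of Nfyc, which encodes a subunit of the transcription factor NF-Y. Mir30b and Mir30d lie within that of the long non-coding RNA LOC102551574. Mir30c2 lies within the spans of the long non-coding RNA LOC134480562 and of the pseudogene Rbx1-ps1. Exons were not examined.

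Summed over the table, libraries had 305476 to 549446 reads, so that 1 read was worth from 1.82 to 3.27 CPM (counts scaled to a library total of 1000000). In all 6 libraries, between 306144 and 355274 CPM came from the 4 germ-cell miRNAs of the marker list (miR-34b, miR-34c and miR-449a). Every marker of the 8 cell-type lists was in the table, and 3 lists had summed levels that did not overlap between groups. Each of the 3 had an exact permutation p of 0.1, the smallest possible for 3 against 3, not adjusted over the 8 lists. Among the 578 single miRNAs tested below, 14.9% had groups that did not overlap. The other lists, germ cells among them, overlapped. The endothelial miR-126a arms summed to between 11721.5 and 13783 CPM in diabetic and between 8662 and 11086.3 CPM in normal libraries. Both arms of miR-202, found in Sertoli and germ cells, summed to between 4101.8 and 4467.1 against between 3261.5 and 3692.7 CPM. The liver miRNA miR-122-5p was at 935.5 to 1371.6 against 1839.3 to 2785.5 CPM. The part of these cell types in the results on miR-30 was not tested.

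The family was among the abundant miRNAs of the testis. Its 11 members took 6.90%, 8.99% and 7.69% of reads in diabetic replicates 1, 2 and 3, and 6.84%, 7.63% and 8.74% in normal replicates 1, 2 and 3. Nearly all of it was 5p, which made up between 96.6% and 97.4% of family reads in every library. All 5 of the 5p members were among the 50 most abundant miRNAs, and 2 of them, miR-30a-5p and miR-30d-5p, were among the top 10.

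**Figure D1:**
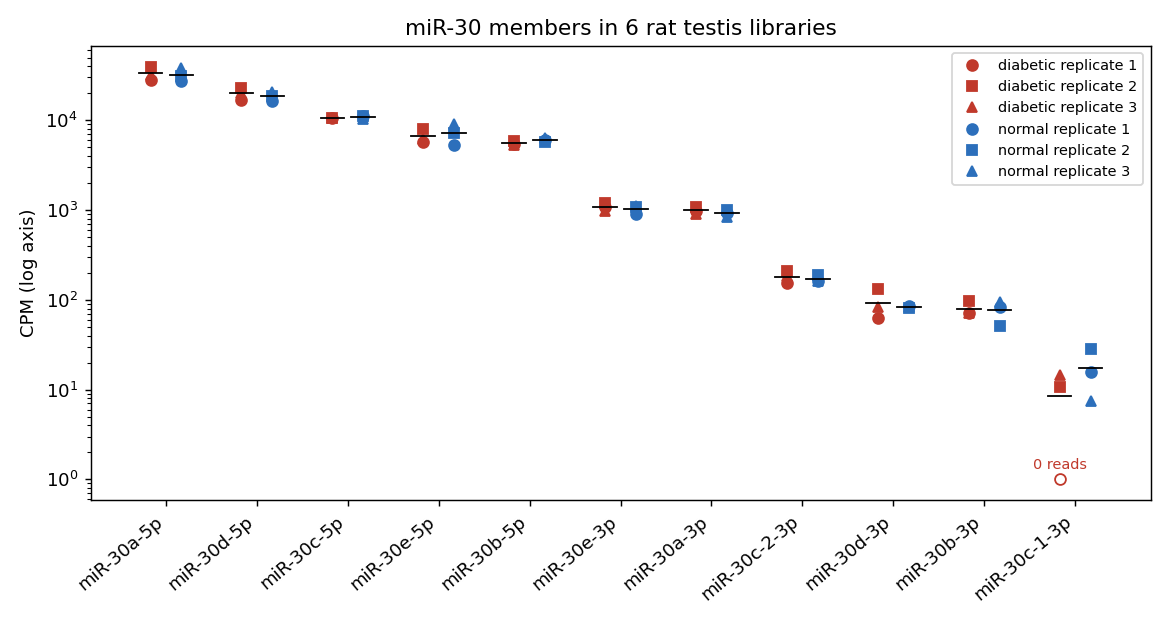
CPM of each miR-30 member (log axis) in the 3 diabetic (red) and 3 normal (blue) libraries, with replicates as symbols and group means as bars. The open circle drawn at 1 stands for 0 reads of miR-30c-1-3p in diabetic replicate 1. Mean levels run from 32804 CPM for miR-30a-5p to 12.9 CPM for miR-30c-1-3p, and the groups overlap for all 11 members.

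Ordered by mean CPM over 6 libraries, the 5p members were miR-30a-5p at 32804 ± 5215, miR-30d-5p at 19286 ± 2574, miR-30c-5p at 10779 ± 351, miR-30e-5p at 6925 ± 1442 and miR-30b-5p at 5800 ± 380 (SD, n = 6). The first 3 steps of this order held in 6 of 6 libraries (exact permutation test over sign changes within libraries, two-sided, adjusted p over 10 steps = 0.0446). miR-30e-5p and miR-30b-5p did not differ beyond their spread (5 of 6 libraries, exact permutation adjusted p = 0.104). The 3p members followed, each below every 5p member: miR-30e-3p at 1059 ± 106, miR-30a-3p at 961 ± 84.7, miR-30c-2-3p at 176 ± 21.4, miR-30d-3p at 88.0 ± 23.1, miR-30b-3p at 78.1 ± 17.2 and miR-30c-1-3p at 12.9 ± 9.51 CPM (SD, n = 6). Of the 5 steps between them, miR-30e-3p over miR-30a-3p (exact permutation adjusted p = 0.0781) and miR-30d-3p over miR-30b-3p (exact permutation adjusted p = 0.281) did not pass. Capture in small RNA libraries depends on sequence, so levels of different miRNAs are comparable only roughly.

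The central comparison asked whether miR-30 members differed between diabetic and normal testis. No member passed the test. Of the 11, 0 had an adjusted p under 0.05 and 0 an unadjusted p under 0.05 in limma on log2(CPM + 1), edgeR and DESeq2 on recovered reads also called 0, and the groups overlapped for all 11. Over all 578 miRNAs tested, 0% had an adjusted p under 0.05, 8.82% an unadjusted p under 0.05, and 14.9% had groups that did not overlap (edgeR called 2 and DESeq2 1 of the 578). Adjusted p-values of the members ran from 0.728 to 0.899. The median difference of the members, diabetic minus normal, was 0.07 on the log2(CPM + 1) scale, and that of all tested miRNAs was 0.0046. Of the 11 differences, 7 were positive and 4 negative, and with upper-quartile scaling factors, which moved the median of all tested miRNAs to -0.10, all 11 were negative.

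**Figure D2:**
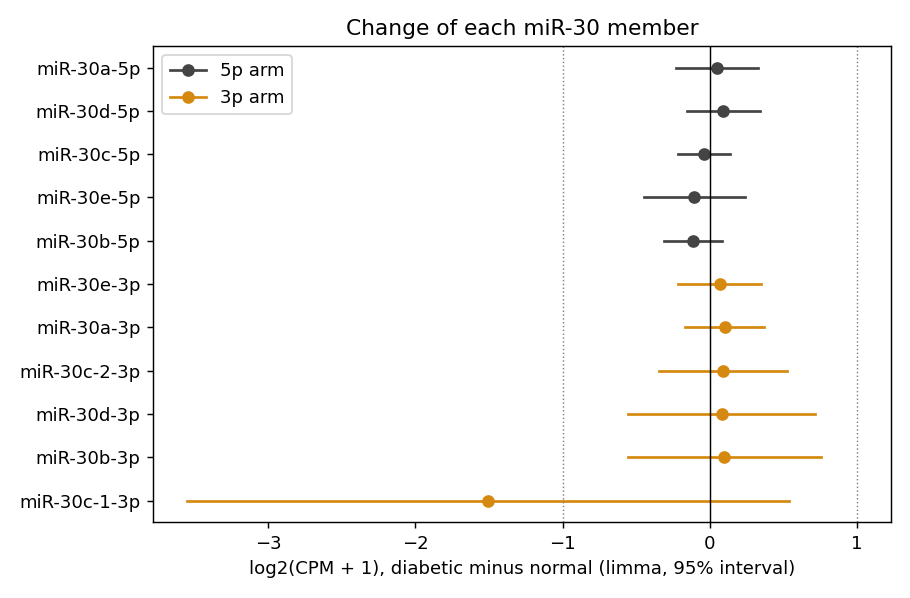
Difference of log2(CPM + 1), diabetic minus normal, for each member with its 95% interval from limma (5p grey, 3p orange); dotted lines mark a difference of 1. Every interval includes 0, and 10 of 11 lie between -1 and 1.

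The most abundant members, both on the 5p side, overlapped widely between groups. miR-30a-5p was at 28094, 39653 and 32345 CPM in diabetic and at 27078, 31245 and 38411 CPM in normal libraries, with the lowest and the second highest value both in the normal group. Its log2 difference was 0.05 with a standard error of 0.13, and the 95% interval ran from -0.23 to 0.33, which is from 0.854-fold to 1.25-fold (limma adjusted p = 0.869). miR-30d-5p was at 16653, 23064 and 20093 CPM against 16430, 18573 and 20901 CPM. Again the lowest value was in normal replicate 1 and the highest in diabetic replicate 2. Its log2 difference of 0.09 (standard error 0.12) had an interval from -0.16 to 0.34 (limma adjusted p = 0.808).

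The other 5p members had negative differences that were also within the spread. miR-30e-5p, 1 base apart from miR-30a-5p, was at 5657, 8007 and 6230 CPM in diabetic and 5358, 7235 and 9066 CPM in normal libraries. The log2 difference of -0.11 (standard error 0.16) had an interval from -0.45 to 0.24 (limma adjusted p = 0.831). miR-30b-5p was at 5506, 5924 and 5284 CPM against 6022, 5717 and 6346 CPM, where 1 diabetic library, replicate 2, stood above the lowest normal one. Its log2 difference of -0.11 had a standard error of 0.09 and an interval from -0.31 to 0.08 (limma adjusted p = 0.795; exact permutation p = 0.2, where the smallest possible for 3 against 3 is 0.1).

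miR-30c-5p, the strand that both Mir30c1 and Mir30c2 encode, was the steadiest member. It was at 10721, 10507 and 10667 CPM in diabetic and 11289, 11107 and 10380 CPM in normal libraries. Its coefficient of variation over the 6 libraries was 3.26%, and of the 257 miRNAs that reached 10 reads in each library, 2 had a lower one (median 15.4%). The log2 difference was -0.04 with a standard error of 0.08, and the interval from -0.21 to 0.14 was the narrowest of the family (limma adjusted p = 0.846).

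The 3p strands, often called passenger strands where they are the rarer arm, were read at lower depth, and none passed the test either. miR-30e-3p was at 1093, 1185 and 970.1 CPM in diabetic and at 895.3, 1090 and 1121 CPM in normal libraries, a log2 difference of 0.07 with an interval from -0.21 to 0.35 (limma adjusted p = 0.846). miR-30a-3p was at 978.8, 1094 and 910.0 CPM against 933.8, 1001 and 847.0 CPM, a log2 difference of 0.10 with an interval from -0.17 to 0.37 (limma adjusted p = 0.808). For these and for all 5p members the interval stayed within 0.5 on the log2 scale. The remaining 4 were scarcer and their intervals wider, and only 3 of these stayed within 1.

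miR-30c-2-3p had 47, 78 and 100 reads in diabetic and 71, 93 and 85 in normal libraries, and its log2 difference was 0.09 (interval from -0.34 to 0.52; limma adjusted p = 0.846). miR-30d-3p had 19, 49 and 46 against 38, 40 and 44 reads. Both the lowest and the highest CPM of miR-30d-3p, 62.2 and 131.7, were in diabetic libraries, and its log2 difference was 0.08 (interval from -0.55 to 0.72; limma adjusted p = 0.899). miR-30b-3p had 22, 36 and 39 against 37, 25 and 50 reads, with a log2 difference of 0.10 (interval from -0.56 to 0.75; limma adjusted p = 0.878).

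miR-30c-1-3p was the only member under 10 reads in any library, with 0, 4 and 8 reads in diabetic and 7, 14 and 4 reads in normal libraries. At 0 reads in diabetic replicate 1, a level of up to 9.82 CPM (3 reads) is allowed, counting error only. The log2 difference of -1.51 had a standard error of 0.96 and an interval from -3.55 to 0.54 (limma adjusted p = 0.728). Leaving out 1 library at a time moved it from -2.23 (without diabetic replicate 3) to -0.25 (without diabetic replicate 1). It was -2.59 with a pseudocount of 0.1 CPM and -0.88 in the edgeR test on reads, and a difference was not detectable at this depth. Of the 511 reads from the 2 miR-30c 3p strands, 37 were miR-30c-1-3p (7.24%; 95% Wilson interval from 5.30% to 9.82%, for counting error over the pooled reads, with single libraries from 0% to 13.1%), although both precursors give the same 5p strand.

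Sums over members smooth out reads that could be assigned to either of 2 near-identical strands. The summed 5p members were at 66630.5, 87155.3 and 74618.8 CPM in diabetic and 66176.5, 73876.6 and 85103.4 CPM in normal libraries. The means were 76135 ± 10346 and 75052 ± 9518 CPM (SD, n = 3 each; exact permutation p = 0.7), and the log2 difference of the sums, 0.02, turned negative with TMM, upper-quartile or DESeq2 scaling factors. The summed 3p members were at 2360.3, 2728.1 and 2231.4 against 2175.9, 2440.2 and 2312.6 CPM. Their means, 2440 ± 258 and 2310 ± 132 CPM (SD, n = 3 each), also differed by less than the spread (exact permutation p = 0.6). Sums by seed cover only members with a matched sequence, so the GUAAACA sum leaves out miR-30b-5p and miR-30d-5p. The members printed above with GUAAACA summed to 50627 ± 6952 against 50390 ± 7100 CPM, and the pair with UGGGAGA to 190.3 ± 33.7 against 187 ± 26.3 CPM (SD, n = 3 each, exact permutation p = 0.9 for each). Both of these log2 differences, 0.0074 and 0.02, turned negative with the same 3 sets of factors.

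The one other miRNA of the table with a matched GUAAACA seed was nearly absent. miR-384-5p, from Mir384, had 1, 0 and 1 reads in diabetic and 2, 1 and 3 reads in normal libraries, at or under the 3 reads taken as the limit, so no fold is given.
miR-384-5p: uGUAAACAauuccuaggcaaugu

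In every 5p member, libraries of one group stood further apart than the group means. The 3 members that varied most had the same libraries highest and lowest, a pattern that the other 2 did not share. miR-30a-5p, miR-30d-5p and miR-30e-5p each had their 2 highest values in diabetic replicate 2 and normal replicate 3 and their 2 lowest in diabetic replicate 1 and normal replicate 1. In diabetic replicate 2 they stood at 121%, 120% and 116% of their means over the 6 libraries, and in normal replicate 1 at 82.5%, 85.2% and 77.4%. miR-30b-5p and miR-30c-5p moved less, between 91.1% and 109% and between 96.3% and 105% of their means. The highest value over the lowest was 1.46 for miR-30a-5p, 1.40 for miR-30d-5p and 1.69 for miR-30e-5p, but 1.20 for miR-30b-5p and 1.09 for miR-30c-5p. The coefficient of variation of miR-30a-5p, 15.9%, was ordinary for these libraries: of the 257 miRNAs compared, 131 had a lower one.

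**Figure D3:**
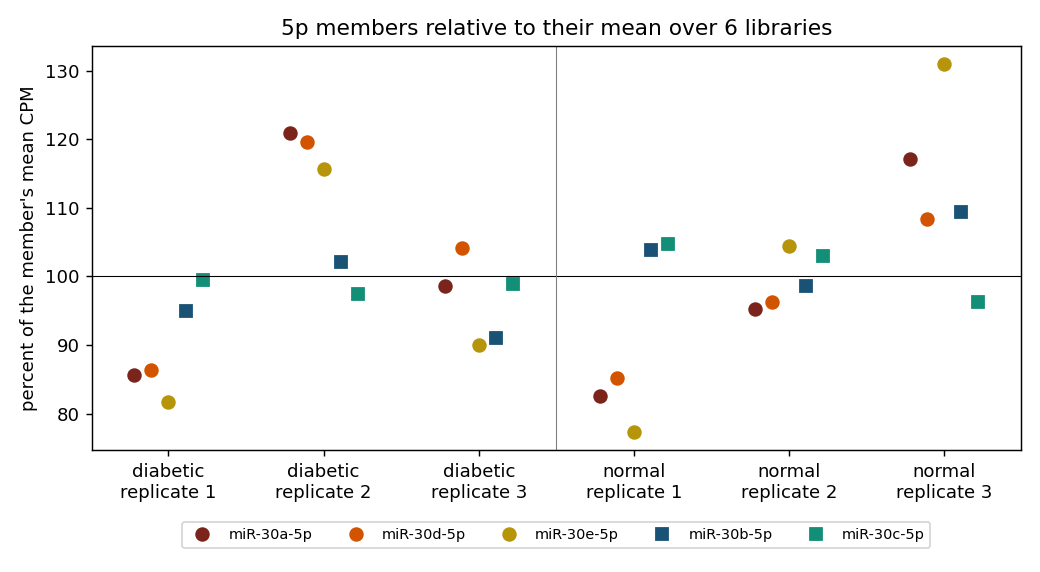
CPM of each 5p member in each library as a percent of that member's mean over 6 libraries. miR-30a-5p, miR-30d-5p and miR-30e-5p (circles) stand at 108% or more in diabetic replicate 2 and normal replicate 3 and at 86.3% or less in diabetic replicate 1 and normal replicate 1, while miR-30b-5p and miR-30c-5p (squares) stay between 91.1% and 109%.

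The ratio of the sum of miR-30a-5p, miR-30d-5p and miR-30e-5p to that of miR-30b-5p and miR-30c-5p, a split chosen after the values were seen, was 3.11, 4.30 and 3.68 in diabetic and 2.82, 3.39 and 4.09 in normal libraries. The groups overlapped (3.70 ± 0.599 against 3.43 ± 0.634, SD, n = 3 each). The germ-cell marker sum was 330209, 333050 and 311135 CPM in diabetic and 340039, 306144 and 355274 CPM in normal libraries. It was highest in normal replicate 3 and lowest in normal replicate 2, while the 3 members were lowest in normal replicate 1. Its part in this pattern, and that of the other marker lists, was not tested. Within the 5p arm, miR-30a-5p gave between 40.9% and 45.5% of reads and miR-30d-5p between 24.6% and 26.9%. miR-30c-5p gave between 12.1% and 17.1%, miR-30e-5p between 8.10% and 10.7%, and miR-30b-5p between 6.80% and 9.10%. The groups overlapped for all 5 shares (exact permutation p adjusted over 5 shares from 0.667 to 0.7).

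The ratio of the 2 arms was taken within each library, where depth and scaling cancel, from reads with 0.5 added to each arm. Unequal capture of strands that differ in sequence does not cancel, so ratios of different precursors are comparable only roughly. For miR-30c the 2 3p strands were summed, since the 5p strand is shared. Mir30c1 and Mir30c2 are therefore counted below as a single precursor, and neither has a ratio of its own. In all 5 precursors the 5p arm was the larger in every library, but the size of the ratio varied between them. It was 220 for miR-30d, 74.7 for miR-30b, 57.2 for miR-30c, 33.9 for miR-30a and 6.45 for miR-30e (geometric means over 6 libraries), a 34.1-fold span. Each of the 4 steps in this order held in 6 of 6 libraries (exact permutation test over sign changes, adjusted p = 0.031, the smallest that 6 libraries can give). The order was taken from these same values. The step from miR-30b to miR-30c was about as large as its spread (0.38 ± 0.38 log2, SD, n = 6).

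miR-30e and miR-30a, whose 5p strands differ by 1 base, stood far apart in their shares of 3p reads. How reads matching both 5p strands were assigned is not stated. miR-30e-3p had no matched sequence, so its likeness to miR-30a-3p was not examined. The 3p shares of miR-30e and miR-30a are therefore less certain than that of the family sum. miR-30e had 1728, 2979 and 3423 5p reads with 334, 441 and 533 3p reads in diabetic, and 2364, 3564 and 4806 with 395, 537 and 594 in normal libraries. Its 3p share was 16.2%, 12.9% and 13.5% in diabetic and 14.3%, 13.1% and 11% in normal libraries. For miR-30a the 3p share was 3.37%, 2.68% and 2.74% against 3.33%, 3.10% and 2.16%. In both, normal replicate 3 had the lowest 3p share: for miR-30a its 95% Wilson interval, from 1.97% to 2.36%, lay below those of the other 5 libraries, the lowest of which began at 2.44%.

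The other precursors gave little 3p. Between 1.41% and 2.05% of miR-30c reads, 0.880% and 1.61% of miR-30b reads and 0.372% and 0.568% of miR-30d reads came from the 3p arm. For miR-30d this rested on 19 to 49 3p reads beside 5087 to 11080 5p reads, and the interval in diabetic replicate 1 ran from 0.238% to 0.580%. Intervals cover counting error only.

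**Figure D4:**
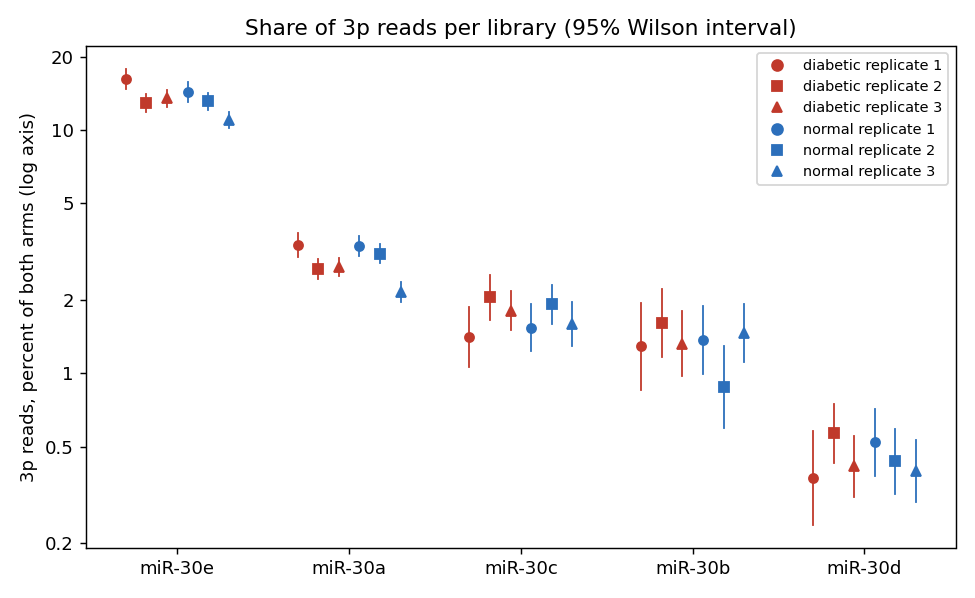
Share of 3p reads among both arms (percent, log axis) for each precursor in each diabetic (red) and normal (blue) library, with 95% Wilson intervals. miR-30c pools Mir30c1 and Mir30c2. The precursors keep one order in every library, from miR-30e at 11% to 16.2% down to miR-30d at 0.372% to 0.568%, and the groups overlap for each.

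No miR-30 arm ratio passed the test between diabetic and normal testis. Of the 5 miR-30 precursors, 0 had an adjusted p under 0.05 and 0 an unadjusted p under 0.05 (limma on log2 arm ratios), and 0 had groups that did not overlap. Over the 143 arm pairs tested, which had at least 10 reads of both arms together in every library, 0.699% had an adjusted p under 0.05, 6.29% an unadjusted p under 0.05 and 11.9% groups that did not overlap. The single called pair was let-7g, named here after its values were seen (limma adjusted p = 0.00704). All 3 diabetic libraries held 0 reads of its 3p arm, against 2, 3 and 3 in normal replicates 1, 2 and 3, at or under the 3 reads taken as the limit, so the value depends on the 0.5 added and no fold is given. No pair was called without normal replicate 2, nor among the 58 pairs with at least 10 reads of each arm in every library, an alternative chosen after seeing the data, where all 5 miR-30 pairs stayed in. For miR-30a the diabetic libraries averaged a log2 ratio of 5.06 ± 0.19 and the normal ones 5.11 ± 0.35 (SD, n = 3 each), a difference of -0.05 with an interval from -0.62 to 0.52 (limma adjusted p = 0.936). That of miR-30e was 2.60 ± 0.20 against 2.77 ± 0.22 (SD, n = 3 each), a difference of -0.17 with an interval from -0.70 to 0.35 (limma adjusted p = 0.897).

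For the other precursors the groups overlapped too. The difference of log2 ratios was -0.22 for miR-30b (interval from -0.85 to 0.42; limma adjusted p = 0.897), -0.06 for miR-30c (from -0.59 to 0.47; 0.936) and 0.0066 for miR-30d (from -0.55 to 0.56; 0.985). The median over the 5 miR-30 pairs was -0.06, beside 0.01 over all pairs tested. For the whole family, 5p reads stood to 3p reads as 28.2, 31.9 and 33.4 to 1 in diabetic and as 30.4, 30.3 and 36.8 to 1 in normal libraries (exact permutation p = 0.7).

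The 5p share of the miR-30 pairs can be set beside that of other pairs. The median 3p share over all 143 pairs was 17.6%, and 84 of them (58.7%) had more 5p than 3p reads. That median depends on the filter, and was 50.3% over the 58 pairs with at least 10 reads of each arm, where 29 had more 5p reads. Among the 143 pairs, ranked from the highest 3p share, miR-30e stood 75th, miR-30a 90th, miR-30c 98th, miR-30b 104th and miR-30d 117th.

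**Figure D5:**
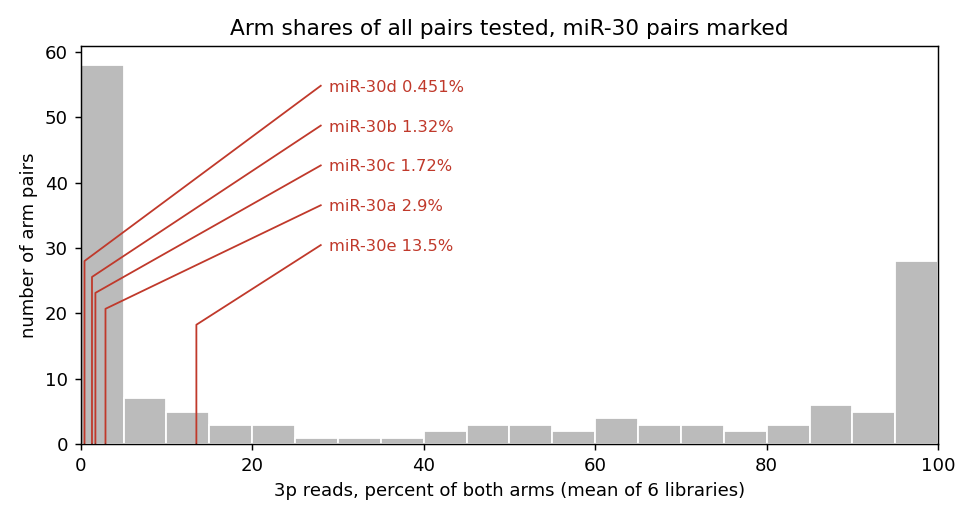
Number of arm pairs by mean 3p share over the 6 libraries (percent of both arms, bars 5 percentage points wide) for the 143 pairs tested, with the miR-30 precursors marked in red. miR-30c pools Mir30c1 and Mir30c2. Most pairs lie near an end, 58 under 5% and 28 over 95%, and miR-30e at 13.5% lies apart from the other miR-30 precursors, which are all under 5%.

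As family sums, miR-30 had a larger 3p share than 2 other families with a dominant 5p arm. Single precursors overlapped: let-7d, at 18.7% 3p, was above every miR-30 precursor, and miR-30d, at 0.451%, was below let-7a, let-7c, let-7e and miR-98 (0.650% to 1.61%). Summed 5p levels of miR-30 and of the let-7 and miR-98 family, known for its part in differentiation, were 75594 ± 8911 and 80281 ± 5296 CPM (SD, n = 6). They did not differ beyond their spread (miR-30 higher in 2 of 6 libraries, exact permutation adjusted p over 4 tests = 0.344). The log2 ratio of 5p to 3p reads did differ. It was lower in miR-30 by 2.48 ± 0.26 on average than in that family (SD, n = 6, lower in 6 of 6 libraries, exact permutation adjusted p = 0.0417). The part of strand capture in this difference was not tested. miR-26a and miR-26b, at 22942 ± 1500 CPM, were below miR-30 in 6 of 6 libraries and had from 0 to 3 3p reads in a library (exact permutation adjusted p = 0.0417 for the level and for the ratio).

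The miRNAs whose log2(CPM + 1) was most like the summed 5p miR-30 over the 6 libraries were miR-425-5p (Pearson r = 0.88), miR-465-3p (0.86), miR-878 (0.83), miR-463-3p (0.83) and miR-16-5p (0.82). They were the top 5 of 247 candidates, none under 10 reads in any library, over only 6 points that share one normalization, so the list is a description.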

How the data were processed

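Small RNA from testis was sequenced in 3 diabetic and 3 normal samples, grouped by the labels. Per the study's methods, single-end reads were trimmed, small RNAs counted and known miRNAs named after miRBase. The submitters' processing notes name Bowtie 0.12.2, HISAT2 2.0, StringTie 1.3.0 and the mouse build mm8 without giving their roles, and the extraction text describes a poly(A) library, unlike the small RNA design. The aligner used for these miRNAs is not given in the sources used here. The authors deposited CPM values rounded to 1 decimal, under headings that say TPM. Each library summed to about 1000000.

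Whole reads were recovered as the smallest total that makes every value a whole number of reads (100% of values, within rounding). They served for arm ratios and for edgeR 4.0.16 and DESeq2 1.42.0 as alternatives. The main test was limma 3.58.1 (R 4.3.3; trend, no covariate) on log2(CPM + 1), for miRNAs with at least 1 CPM in 3 libraries, with Benjamini-Hochberg adjustment over all tested. Arm ratios were fitted likewise for pairs with at least 10 reads of both arms together in every library, so one arm may hold few or no reads. Exact permutation tests (scipy 1.17.1) were two-sided. Steps were tested on simulated data. Within groups, chi-square per degree of freedom ran from 6.47 to 20.0, so no library was a copy of another in its group. Every member was named, with any miRNA sharing a seed, the 5 most alike and 2 comparison families. The name rule for members used no measured value, but the rule, lists and tests were set with earlier results of these data known.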

Additional observations from a re-analysis of the deposited data

How the results depend on the processing

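The count of members with an adjusted p under 0.05 was 0 in every alternative run, and so was that at an unadjusted p under 0.05, while over all miRNAs the adjusted count ran up to 8 (eBayes without trend). Both counts were also 0 for arm ratios. Upper-quartile factors shifted the middle of all differences, 0.0046 before, to -0.10 (log2) and turned all 7 members of positive difference: miR-30a-3p to -0.0072, miR-30a-5p to -0.0575, miR-30b-3p to -0.0071, miR-30c-2-3p to -0.0173, miR-30d-3p to -0.0259, miR-30d-5p to -0.0155 and miR-30e-3p to -0.0400. With TMM factors miR-30a-5p was at -0.00058. With TMM, upper-quartile and DESeq2 factors the summed 5p members were at -0.0307, -0.0876 and -0.0125, and all members at -0.0290, -0.0860 and -0.0109. In the same order, the GUAAACA members with a matched sequence (miR-30a-5p, miR-30c-5p and miR-30e-5p) were at -0.0429, -0.0998 and -0.0247. The UGGGAGA members were at -0.0338, -0.0907 and -0.0156. The summed 3p members were at -0.0316 with upper-quartile factors. Leaving out 1 library at a time turned values near 0 in sign, and the log2 difference ranged from -0.0822 to 0.183 for miR-30a-5p, -0.167 to 0.273 for miR-30b-3p, -0.0182 to 0.203 for miR-30c-2-3p, -0.206 to 0.329 for miR-30d-3p, -0.0198 to 0.215 for miR-30d-5p, -0.0342 to 0.144 for miR-30e-3p and -0.304 to 0.0751 for miR-30e-5p, and from -2.23 to -0.25, all negative, for miR-30c-1-3p. For arm ratios it ranged from -0.176 to 0.147 for miR-30a, -0.354 to 0.0111 for miR-30b, -0.206 to 0.0650 for miR-30c and -0.114 to 0.181 for miR-30d. For the sums it ranged from -0.0824 to 0.114 (5p), -0.0076 to 0.137 (3p), -0.0801 to 0.113 (all members), -0.0972 to 0.112 (GUAAACA), -0.0973 to 0.162 (UGGGAGA) and -0.108 to 0.0368 (5p to 3p ratio). Why these signs turned was not tested. Every other alternative kept the direction of every member and arm ratio.

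Replicate numbers are shared between groups in the labels, but deviations of same-numbered libraries from their group means correlated by only 0.0065, -0.069 and -0.089 over 257 miRNAs, so the numbers were not read as pairs. Requiring at least 10 reads of each arm, chosen after seeing the data, left 58 of 143 arm pairs and called 0 of them in place of 1. With the replicate block, 0 members and 0 miR-30 arm ratios were called, and 1 of 578 miRNAs and 0 of 143 arm ratios. Depth limits miR-30c-1-3p, with 37 reads in all, and the arm ratio of miR-30d, with as few as 19 3p reads. With 3 libraries a group, no sum can reach an exact permutation p below 0.1.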
